A study of Mus musculus with 18 samples.

Results

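The NF-kB module of B cells was followed through 10 genes: the 5 subunits Nfkb1, Rela, Rel, Nfkb2 and Relb, the inhibitors Nfkbia, Nfkbib and Nfkbie, the atypical IkB protein Bcl3 and the ubiquitin-editing enzyme Tnfaip3. They were chosen by name and matched to the 51912 gene identifiers of the deposited table through the GRCm38 annotation, and each of the 10 was measured well enough to be tested in every comparison. The libraries came from C57BL/6 mice that were either wild-type littermates (WT) or homozygous for loss of Sh3gl1, the gene for the endocytic adaptor endophilin A2 (Sh3gl1-/-). There were 6 groups of 3 libraries: transitional B cells, untreated (WT and Sh3gl1-/-), follicular B cells, untreated (WT and Sh3gl1-/-), and follicular B cells after treatment with CD40L (WT and Sh3gl1-/-), which the labels give as 14 h. The methods call this culture overnight, and figure legends name a longer time. CD40L is the T-cell ligand of the receptor CD40. No culture without CD40L was analysed here, so the effect of CD40L and that of culture cannot be told apart. The knockout is germline, so cells other than B cells also lacked endophilin A2 while the B cells developed. The age of the mice is not given in the labels.

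NF-kB proteins bind DNA as dimers. In the canonical arm, dimers of p50 (from Nfkb1) with RelA or c-Rel are held in the cytoplasm by IkB proteins until the IkB kinase complex marks the IkB for degradation. In the non-canonical arm, which CD40 and the BAFF receptor engage in B cells, the kinase NIK leads to processing of p100 (from Nfkb2) to p52, which pairs with RelB. Several NF-kB target genes encode inhibitors of the pathway, among them IkBα (Nfkbia), IkBε (Nfkbie) and A20 (Tnfaip3), so the pathway restrains itself.

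The libraries held 12404688 to 18366078 estimated counts each. Sh3gl1 had 377 to 929 counts in the 9 WT libraries and 1 to 22 in the 9 Sh3gl1-/- libraries, as labelled. The immature B-cell marker Cd93 ranged from 57.5 to 85.6 CPM (counts scaled to library size) in transitional libraries and from 11.8 to 26.3 CPM in untreated follicular ones, and Fcer2a, which mature follicular cells express, was higher in every untreated follicular library (1191 to 1660 CPM) than in the transitional ones (776 to 1117 CPM). Transcripts of other cell types differed between genotypes. The summed level of 4 plasma cell markers was 1085 to 4562 CPM in transitional Sh3gl1-/- libraries against 428 to 669 CPM in WT, nearly all of it Jchain (1065 to 4513 against 406 to 648 CPM). That of 5 neutrophil markers was 102 to 501 CPM against 43.5 to 83.4 CPM, with Ly6g between 0 and 0.273 CPM in the WT libraries. Erythroid markers (3) summed to 2438 to 5250 CPM against 1263 to 2172 CPM, and T-cell markers (5) to 54.6 to 82.0 against 31.8 to 51.8 CPM. Dendritic-cell markers (3) summed to 10.27 to 25.6 against 4.03 to 10.05 CPM. Marginal zone B-cell markers (4) were lower, at 195 to 238 against 328 to 352 CPM. Sums of NK-cell and of macrophage or monocyte markers overlapped. In follicular libraries 5 T-cell markers summed to 96.9 to 124 CPM in Sh3gl1-/- and to 46.1 to 67.3 CPM in WT, 4 plasma cell markers to 143 to 177 CPM and 64.0 to 128 CPM, 5 neutrophil markers to 155 to 720 CPM and 53.5 to 160 CPM, with Ly6g alone of these at 0 in the WT libraries, and 3 erythroid markers to 1680 to 5179 CPM and 786 to 2126 CPM. In bulk RNA, fewer cells of a type and less RNA per cell cannot be told apart.

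The members were also compared by the sequence at their start sites. RefSeq promoter windows (GRCm38.p6, 250 bases before to 50 after a start) were given for 8 of the 10 members, in 11 windows. Nfkb1 and Relb had no window. The kB consensus, the general NF-kB binding motif, matched on either strand in the windows of 6 members (Nfkb2, Rel, Nfkbia, Nfkbie, Bcl3 and Tnfaip3), and the stricter form GGGANNTTCC, whose matches also match the consensus, in those of 2 (Nfkb2 and Nfkbia). Of all 32851 windows, 8.46% held the consensus and 1.47% the strict form, and of the 27025 genes with a window 9.55% and 1.63% had such a match in at least 1 window. The stretches below show matches of the 3 feedback inhibitors that responded most to CD40L and of 2 subunits, 1 that responded strongly (Nfkb2) and 1 that did not share that response (Rel). They are written 5′ to 3′ on the gene's strand, with the matched bases in capitals and positions counted from the start, where -1 is the base just before it.
Nfkbia (chr12:55492648-55492696, - strand, bases -49 to -1): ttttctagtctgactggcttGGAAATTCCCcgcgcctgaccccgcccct
Nfkbie (chr17:45555574-45555623, + strand, bases -126 to -77): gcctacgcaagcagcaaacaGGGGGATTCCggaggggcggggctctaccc
Tnfaip3 (chr10:19015411-19015555, - strand, bases -145 to -1): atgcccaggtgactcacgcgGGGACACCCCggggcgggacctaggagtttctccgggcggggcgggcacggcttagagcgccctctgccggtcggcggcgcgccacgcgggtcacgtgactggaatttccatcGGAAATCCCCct
Nfkb2, start 1 (chr19:46304689-46304717, + strand, bases -48 to -20): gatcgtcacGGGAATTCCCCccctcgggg
Nfkb2, start 3 (chr19:46305695-46305724, + strand, bases -235 to -206): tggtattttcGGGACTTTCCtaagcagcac
Rel (chr11:23771031-23771081, - strand, bases -112 to -62): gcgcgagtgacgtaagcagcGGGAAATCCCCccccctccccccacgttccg
The Nfkbia, Nfkbie and Rel stretches share 0 bases with exons annotated to these genes and the Tnfaip3 stretch shares 8, while the Nfkb2 stretches share 29 bases each with exons of Nfkb2 transcripts. The strict match GGGACTTTCC is a single site that falls in 2 of the 3 Nfkb2 windows. Not shown for Nfkb2 are a further strict match, GGAATGTCCC at -236 to -227 of start 2, and a consensus match, GGGGCTTTCC at -11 to -2 of start 1. A match describes the letters in a window and was not tested as a binding site.

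Levels of different genes were compared per length, in TPM, a transcript level scaled to gene length and library size. Nfkbia was the most abundant of the 10 transcripts in all 6 groups, with group means from 161 TPM in follicular Sh3gl1-/- cells to 1019 TPM in CD40L-treated Sh3gl1-/- cells. Nfkb1 was at rank 2 in the 4 untreated groups (89.7 to 105 TPM) and at rank 3, after Nfkbie, in the CD40L-treated groups. Tnfaip3 was the least abundant member in the 4 untreated groups (5.44 to 7.05 TPM) and was at rank 5 after CD40L (66.0 TPM in WT and 69.2 TPM in Sh3gl1-/-). Relb, the partner of p52, stayed at rank 9 in all 6 groups, at 7.41 to 16.0 TPM.

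**Figure D1:**
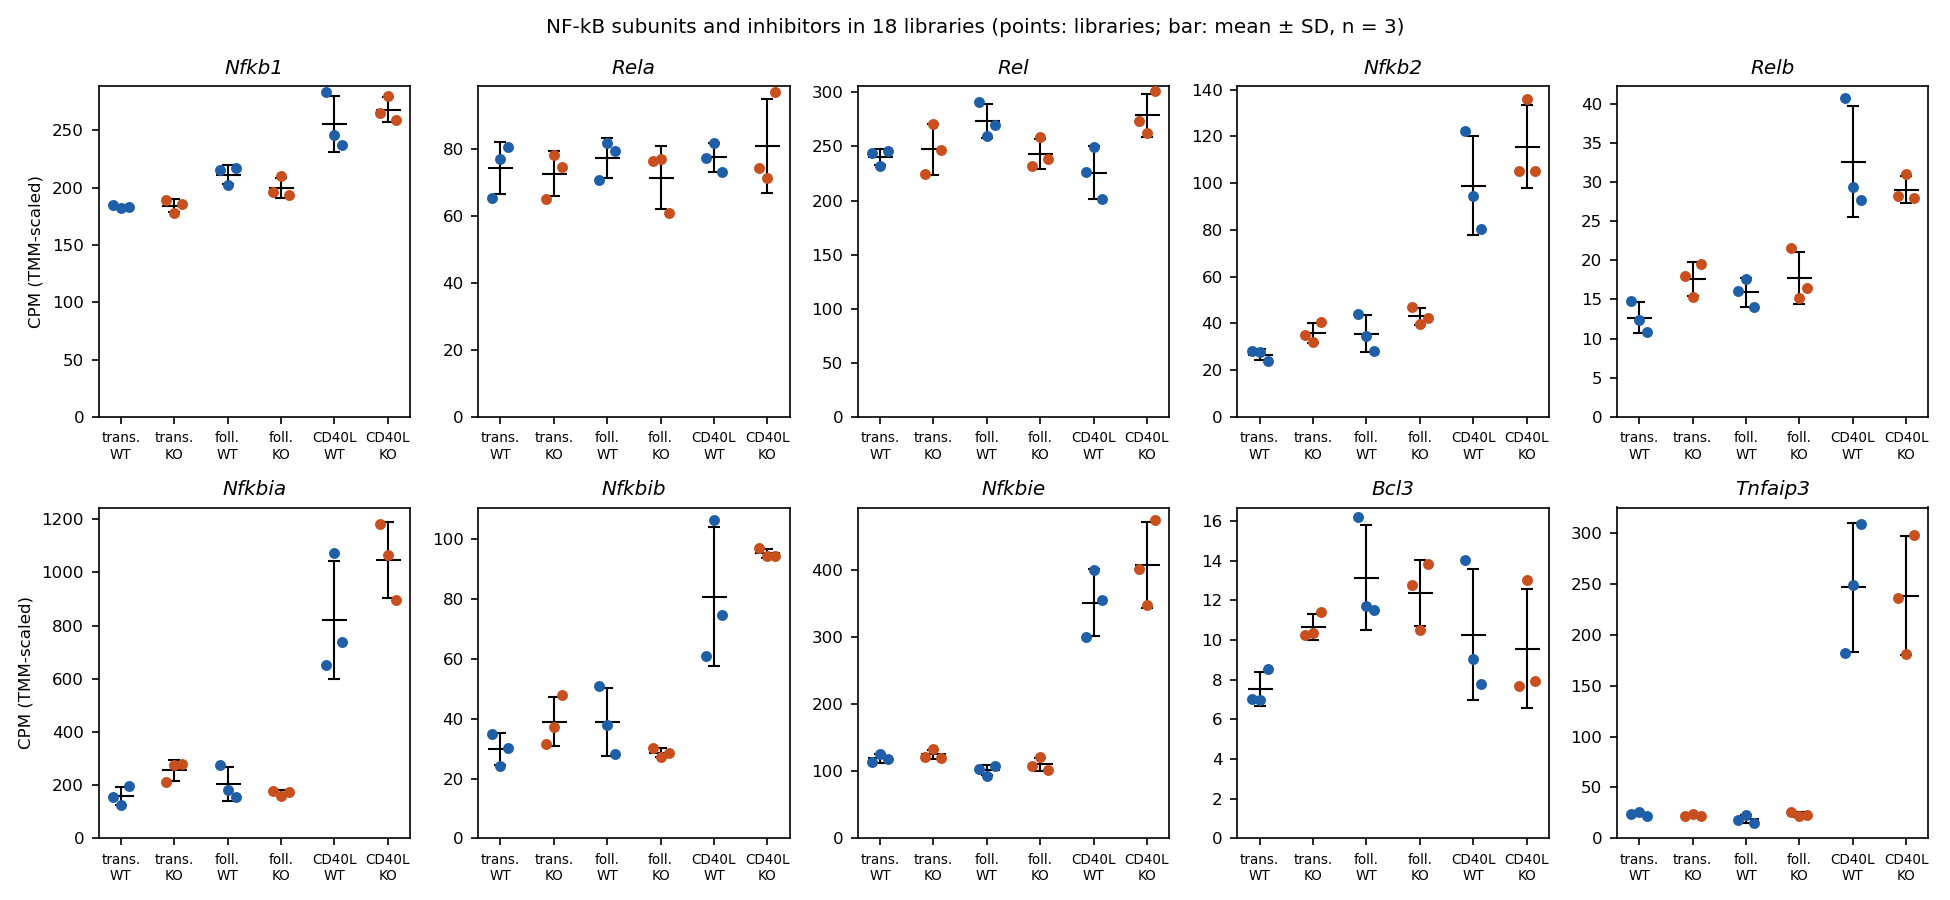
Level of each of the 10 genes (TMM-scaled CPM, linear axes from 0) in the 18 libraries. Points are libraries, bars the mean ± SD of 3. Nfkb1, Nfkb2, Relb, Nfkbia, Nfkbib, Nfkbie and Tnfaip3 stand higher in all 6 CD40L-treated libraries than in all 12 untreated ones, while Rela lies between 60.7 and 96.9 CPM in all 18.

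The mix of subunit transcripts moved with CD40L. Nfkb2 and Relb together made up 9.90% ± 1.16 (SD, n = 3) of the summed TPM of the 5 subunits in transitional WT cells, 12.9% ± 1.47 in transitional Sh3gl1-/- cells, 11.4% ± 1.69 in follicular WT cells and 13.9% ± 1.88 in follicular Sh3gl1-/- cells. After CD40L they made up 22.5% ± 2.48 in WT and 22.5% ± 2.63 in Sh3gl1-/- cells. Among untreated libraries the highest share was 15.6%, and among CD40L-treated ones the lowest was 20.6%. Nfkb1 kept 47.9% to 50.3% of the subunit transcripts in the group means, and the shares of Rel and Rela were lower after CD40L, Rel at 21.3% ± 0.533 in follicular WT cells and 14.3% ± 1.62 after CD40L. The ratio of the summed TPM of Nfkbia, Nfkbib and Nfkbie to that of the subunits was 1.44 ± 0.373 in follicular WT cells and 4.37 ± 1.34 after CD40L, and 1.29 ± 0.0814 and 5.10 ± 0.631 in Sh3gl1-/- cells. In transitional cells this ratio was 1.39 ± 0.197 in WT and 1.96 ± 0.241 in Sh3gl1-/-, with no overlap between the 2 groups. These shares and ratios are descriptions and were not tested.

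**Figure D2:**
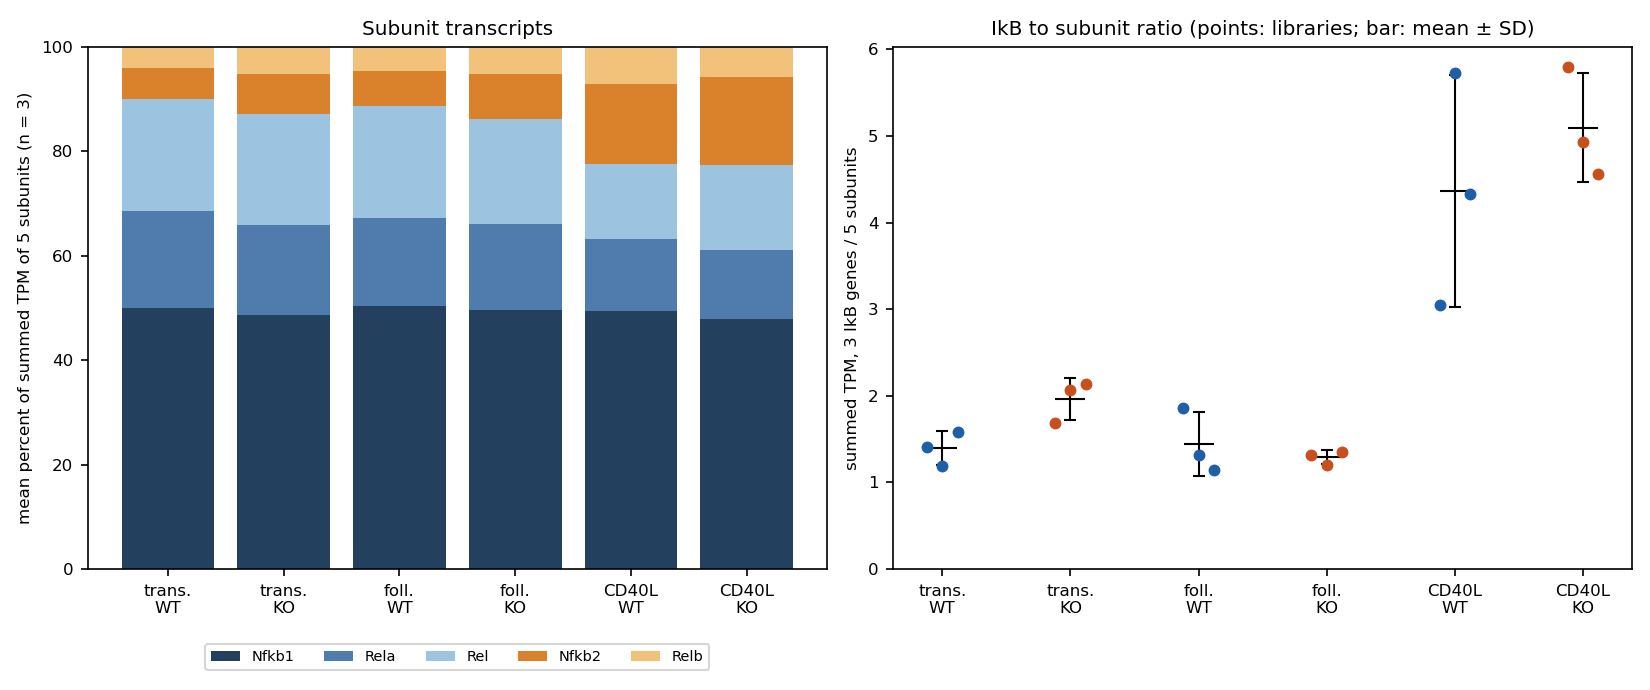
Left, mean percent of the summed subunit TPM taken by each of the 5 subunits in each group (n = 3); the orange parts, Nfkb2 and Relb, make up 9.90% to 13.9% in untreated groups and 22.5% in both CD40L-treated groups. Right, the ratio of the summed TPM of Nfkbia, Nfkbib and Nfkbie to that of the subunits in each library (points, with mean ± SD), where all 6 CD40L-treated libraries lie above the 12 untreated ones.

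To ask how the module responds to T-cell help, CD40L-treated follicular cells were compared with untreated follicular cells within each genotype. In WT cells 8 of the 10 members passed the test (edgeR, adjusted p below 0.05 over 14460 genes), 7 higher and 1 lower, where 49.3% of all genes passed, 23.6% higher and 25.7% lower. In Sh3gl1-/- cells 7 passed, all higher, where 42.4% of all genes passed and 20.6% were higher. The median log2 change of the 10 was 1.01 in WT and 1.05 in Sh3gl1-/- cells, beside -0.08 and -0.03 over all genes. The treated and untreated libraries did not overlap for 7 members that were higher and 1 that was lower in WT (26.9% and 29.6% of all genes) and for 8 that were higher in Sh3gl1-/- (26.2%). Each response compares its own 6 libraries, with the spread estimated over all 12. Erythroid, T-cell and NK-cell transcripts were lower after treatment: in WT, 3 erythroid markers summed to 2.55 to 210 CPM, 5 T-cell markers to 6.55 to 10.3 CPM and 3 NK-cell markers to 1.59 to 2.94 CPM (19.5 to 49.6 CPM untreated), and in Sh3gl1-/- to 14.6 to 62.5 CPM, at most 16.4 CPM and 2.05 to 2.69 CPM (NK 40.1 to 59.7 CPM untreated). Not all others fell. In WT, 3 dendritic-cell markers summed to 4.68 to 7.66 CPM treated, with Itgax at 0, and 4.53 to 9.78 CPM untreated. In Sh3gl1-/-, the sums of 5 neutrophil markers overlapped (47.5 to 172 CPM treated and 155 to 720 CPM untreated). The sum of 4 macrophage or monocyte markers was lower in treated WT libraries (50.4 to 83.3 CPM) than in untreated ones (95.2 to 127 CPM). Of that list, Adgre1 alone was higher in treated WT libraries (43.4 to 78.4 CPM) than in untreated ones (5.05 to 9.44 CPM). Lyz2 (4.54 to 6.07 against 81.9 to 110.8 CPM) and Csf1r (at most 0.966 against 5.49 to 8.10 CPM) were lower, and Cd14 overlapped. Ncr1 was at 0 in at least 1 treated library of each genotype and Cd4 in 1 or more WT ones, and the part of these cells in the responses was not tested.

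Among the subunits, the non-canonical pair responded most. Nfkb2 had 43.8, 34.5 and 28.3 CPM in the 3 untreated follicular WT libraries and 122, 94.4 and 80.4 CPM in the CD40L-treated ones. In Sh3gl1-/- cells it had 47.0, 39.6 and 42.5 CPM before and 105, 136 and 105 CPM after. Every treated library was above every untreated one, and Nfkb2 rose 2.73-fold in WT (log2 1.45 ± 0.18 SE, edgeR adjusted p = 1.98e-05) and 2.66-fold in Sh3gl1-/- cells (log2 1.41 ± 0.18, edgeR adjusted p = 3.46e-05). Relb had 16.1, 17.6 and 14.0 CPM untreated and 40.8, 29.3 and 27.7 CPM treated in WT, and 21.5, 15.2 and 16.5 CPM and 28.2, 31.0 and 28.0 CPM in Sh3gl1-/- cells. The groups did not overlap, and Relb rose 2.01-fold in WT (log2 1.01 ± 0.18, edgeR adjusted p = 0.000377) and 1.62-fold in Sh3gl1-/- cells (log2 0.69 ± 0.18, edgeR adjusted p = 0.00656).

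The canonical subunits changed less. Nfkb1, which encodes p105 and p50, had 215, 202 and 217 CPM untreated and 283, 246 and 238 CPM treated in WT, and 196, 210 and 193 CPM and 265, 280 and 259 CPM in Sh3gl1-/- cells. It rose 1.33-fold in Sh3gl1-/- cells (log2 0.41 ± 0.09, edgeR adjusted p = 0.00316). In WT it rose 1.19-fold (log2 0.25 ± 0.09, edgeR adjusted p = 0.0413), a call that did not hold when any of 5 libraries was left out: adjusted p was 0.0812, 0.0928 and 0.0753 without untreated WT replicates 1, 2 and 3, and 0.187 and 0.0546 without treated WT replicates 1 and 2. It did not hold with the replicate number as a block within each genotype either (adjusted p = 0.0615), and without treated WT replicate 1 the log2 change was 0.16. Rela, the main transactivating subunit, had 70.5, 81.7 and 79.4 CPM untreated and 77.2, 81.8 and 73.2 CPM treated in WT, and 76.4, 77.0 and 60.7 CPM and 74.3, 71.1 and 96.9 CPM in Sh3gl1-/- cells. The ranges overlapped in both genotypes, and neither difference passed the test (log2 -0.03, interval -0.29 to 0.24, in WT, a sign that turns with DESeq2 scaling at 0.02, and log2 0.16, interval -0.10 to 0.43, in Sh3gl1-/-; intervals span 1.96 SE to each side).

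Rel, which encodes c-Rel, differed in sign between the genotypes. It had 291, 260 and 270 CPM in untreated and 227, 250 and 201 CPM in treated WT libraries, with every treated library below the untreated ones, and fell by 0.31 on the log2 scale (SE 0.10, edgeR adjusted p = 0.0225). This call did not hold without untreated WT replicate 1 (adjusted p = 0.10), untreated WT replicate 2 (0.0588) or treated WT replicate 3 (0.110). For Sh3gl1-/- cells, Rel had 232, 259 and 238 CPM untreated and 273, 262 and 301 CPM treated. Every treated library of this genotype was above the untreated ones, but the difference did not pass the test (log2 0.18 ± 0.10, edgeR adjusted p = 0.171).

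Tnfaip3, Nfkbia and Nfkbie showed the largest changes of the 10 members in both genotypes. Tnfaip3, whose product A20 removes activating ubiquitin chains upstream of the IkB kinases, had 17.8, 23.3 and 15.3 CPM in untreated and 183, 249 and 309 CPM in treated WT libraries. The Sh3gl1-/- libraries had 26.4, 21.7 and 22.7 CPM untreated and 236, 181 and 298 CPM treated. The lowest treated library was well above the highest untreated one in both genotypes, and Tnfaip3 rose 12.9-fold in WT (log2 3.69 ± 0.23, edgeR adjusted p = 3.81e-08) and 9.97-fold in Sh3gl1-/- cells (log2 3.32 ± 0.23, edgeR adjusted p = 9.96e-08).

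Nfkbia, encoding the fast-turnover inhibitor IkBα, had 277, 183 and 156 CPM in untreated and 652, 1073 and 737 CPM in treated WT libraries, and rose 3.93-fold (log2 1.97 ± 0.21, edgeR adjusted p = 4.23e-06). The Sh3gl1-/- libraries had 179, 160 and 174 CPM untreated and 1181, 1067 and 897 CPM treated, and Nfkbia rose 6.04-fold (log2 2.59 ± 0.22, edgeR adjusted p = 5.41e-07). Nfkbie, encoding IkBε, had 103, 93.0 and 107 CPM untreated and 300, 399 and 355 CPM treated in WT, and 108, 121 and 102 CPM and 401, 347 and 474 CPM in Sh3gl1-/- cells. Nfkbie rose 3.40-fold in WT (log2 1.77 ± 0.13, edgeR adjusted p = 2.07e-07) and 3.64-fold in Sh3gl1-/- cells (log2 1.86 ± 0.14, edgeR adjusted p = 1.56e-07), with the groups far apart. Nfkbib, encoding IkBβ, had 50.8, 38.0 and 28.1 CPM untreated and 61.1, 107 and 74.9 CPM treated in WT, and 30.3, 27.2 and 28.5 CPM and 97.2, 94.3 and 94.5 CPM in Sh3gl1-/- cells. It rose 2.03-fold in WT (log2 1.02 ± 0.20, edgeR adjusted p = 0.000915) and 3.29-fold in Sh3gl1-/- cells (log2 1.72 ± 0.21, edgeR adjusted p = 1.94e-05).

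Bcl3, a nuclear IkB protein that binds p50 and p52 dimers, was the inhibitor-family member without a called response. It had 16.2, 11.7 and 11.5 CPM untreated and 14.0, 9.02 and 7.77 CPM treated in WT, and 12.8, 10.5 and 13.8 CPM and 7.69, 13.02 and 7.95 CPM in Sh3gl1-/- cells. The ranges overlapped in both genotypes (log2 -0.39, interval -0.91 to 0.13, in WT and -0.39, interval -0.91 to 0.13, in Sh3gl1-/-). Without treated WT replicate 1, the highest treated WT library, the WT difference passed the test at a log2 change of -0.68 (edgeR adjusted p = 0.0447).

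**Figure D3:**
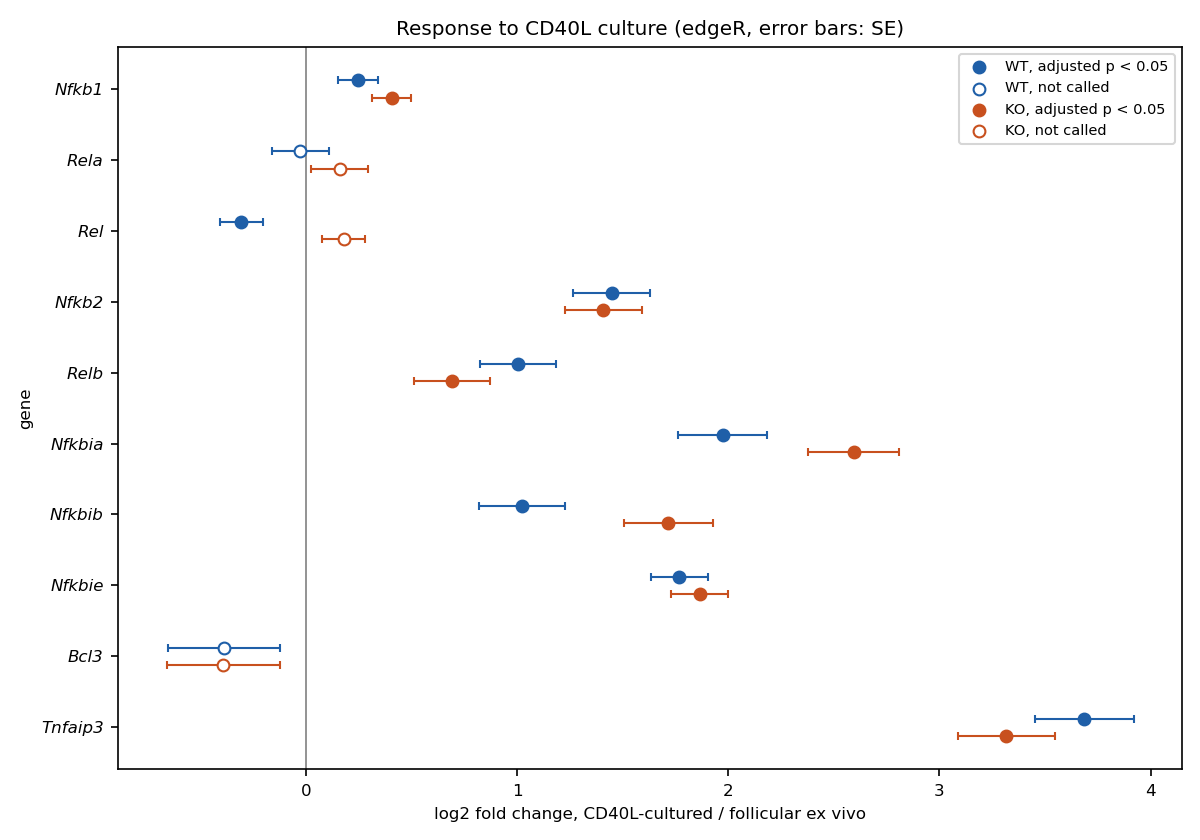
Log2 fold change of each member after CD40L against untreated follicular cells (x axis), in WT (blue) and Sh3gl1-/- (orange) cells; bars are SE, and filled points passed the test. Tnfaip3 lies farthest to the right in both genotypes (3.69 and 3.32), and Rel is the only member filled to the left of 0, in WT.

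Whether the response to CD40L differed between genotypes was tested as an interaction over the 12 follicular libraries. None of the 10 members passed (edgeR), and none of the 14460 genes did. At an unadjusted p below 0.05 there were 3 members (Rel, Nfkbia and Nfkbib), where 8.84% of all genes had one. DESeq2 called 0 of the members, and edgeR without the filter on low counts called 1, Nfkbia (adjusted p = 0.0174), and 0.801% of all genes. That unfiltered fit gave Nfkbia an SE of 0.16, where the filtered fit gave 0.29, so its p-value does not measure the gene's own spread. For Rel the response was higher in Sh3gl1-/- than in WT cells by 0.49 on the log2 scale (SE 0.14, interval 0.20 to 0.77, edgeR adjusted p = 0.465). For Nfkbib the difference was 0.69 (interval 0.13 to 1.26, edgeR adjusted p = 0.526) and for Nfkbia 0.62 (interval 0.06 to 1.18, edgeR adjusted p = 0.563). Intervals of the non-canonical pair reached from -0.54 to 0.46 for Nfkb2 and from -0.81 to 0.18 for Relb, and that of Tnfaip3 from -0.96 to 0.22, so sizeable differences in either direction lie within these limits for Nfkb2.

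The members sit among receptors, signalling proteins and target genes whose transcripts were read in the same comparison. Of 26 NF-kB targets known in B cells, 16 were higher and 2 lower after CD40L in WT, where 23.6% and 25.7% of all genes were. In Sh3gl1-/- cells 18 were higher and 1 lower, where 20.6% and 21.8% of all genes were. The medians were 1.09 and 1.08 on the log2 scale. Ccl22 and Cd80 did not pass the filter in untreated follicular libraries alone. They were tested here only through the treated libraries, so their direction was fixed in advance. Ccl22 is among the genes called higher in both genotypes, so the counts of 16 and 18 include it and are not free of this limit. Fas, which encodes the death receptor CD95, rose by log2 4.80 ± 0.23 in WT and 3.91 ± 0.22 in Sh3gl1-/- cells, and Bcl2a1d, a survival gene of a family of near-identical copies between which reads may be split, by 4.05 ± 0.17 and 3.72 ± 0.17. Irf1 was lower in both genotypes (-0.90 ± 0.10 and -1.60 ± 0.10), and Ltb, the lymphotoxin β chain, in WT (-1.37 ± 0.44).

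Of the 22 upstream kinases and adaptors, 4 were higher and 6 lower in WT, where 23.6% and 25.7% of all genes were, and 1 was higher and 7 lower in Sh3gl1-/- cells, where 20.6% and 21.8% of all genes were. Traf1, an adaptor of TNF-family receptors, rose by log2 3.89 ± 0.17 in WT and 3.56 ± 0.17 in Sh3gl1-/- cells. Malt1, a paracaspase that links the antigen receptor to NF-kB, fell by 1.48 in WT and by 1.16 in Sh3gl1-/- cells, and Chuk, the kinase IKKα, fell by 0.70 and 0.61. Of 13 other feedback regulators, 1 was higher and 3 lower in WT, and 2 were higher and 3 lower in Sh3gl1-/- cells, where Tax1bp1, a cofactor of A20, fell by 0.82 and 0.78. Of 10 receptors tested, Cd40 was higher in both genotypes (log2 1.31 ± 0.11 and 1.11 ± 0.11) and 5 were lower, among them both signalling chains of the antigen receptor, Cd79a (-0.47 and -0.52) and Cd79b (-1.04 and -1.12). The shares of all genes beside these counts are those given above. Tnfrsf1a did not pass the filter in treated libraries alone. It was tested here only through the untreated ones, so a call of it as lower would not count as a result. In the test of the genotype difference in CD40L response 0 genes of these 4 lists passed, as for all genes.

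Transitional cells were compared with follicular cells for changes with maturation. In WT cells 2 members passed, both higher in follicular cells, where 25.9% of 14580 genes passed and 11.7% were higher. In Sh3gl1-/- cells 0 passed with edgeR, where 10.4% of all genes passed, and 2 had an unadjusted p below 0.05 (Nfkbia and Nfkbib), as had 23.9% of all genes. DESeq2 called 4 members in WT, where it called 29.1% of all genes, and 0 in Sh3gl1-/- cells. The same-numbered libraries deviated together within each genotype in these comparisons, and with that block 5 members passed in WT and 1 in Sh3gl1-/- cells, where 29.1% and 13.4% of all genes passed. In WT, 4 macrophage or monocyte markers summed to 363 to 430 CPM in transitional and 95.2 to 127 CPM in follicular libraries, and in Sh3gl1-/- to 294 to 534 and 94.9 to 231 CPM. The plasma cell markers given above were also higher in transitional than in follicular libraries of both genotypes, and the part of these cells in the differences was not tested.

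Bcl3 changed most with maturation in WT, from 7.03, 6.996 and 8.52 CPM in transitional to 16.2, 11.7 and 11.5 CPM in follicular libraries. The groups did not overlap, as for 19.9% of all genes in this direction, and Bcl3 rose 1.76-fold (log2 0.81 ± 0.18, edgeR adjusted p = 0.00548). In Sh3gl1-/- cells it had 10.2, 10.3 and 11.4 CPM in transitional and 12.8, 10.5 and 13.8 CPM in follicular libraries (log2 0.20, interval -0.15 to 0.55, edgeR adjusted p = 0.562). Nfkb1 had 185, 183 and 183 CPM in transitional WT libraries against the 202 to 217 CPM of follicular ones, a 1.16-fold rise (log2 0.21 ± 0.07, edgeR adjusted p = 0.0383). That call did not hold without transitional replicates 1, 2 or 3 (adjusted p = 0.0613, 0.0975 and 0.0785) nor without follicular replicates 1 or 3 (0.108 and 0.105). Nfkb1 in Sh3gl1-/- cells was at 189, 178 and 186 CPM in transitional libraries, all below the follicular ones, as for 14.8% of all genes (log2 0.11 ± 0.07 in follicular cells, edgeR adjusted p = 0.394).

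With the block, Nfkb2 (log2 0.41, edgeR adjusted p = 0.0246), Rel (0.19, adjusted p = 0.0441) and Nfkbie (-0.23, adjusted p = 0.0494) also passed in WT cells. Nfkb2 had 28.0, 27.9 and 24.1 CPM in transitional WT libraries, all below the follicular ones, and without the block its adjusted p was 0.0514. Rel had 244, 232 and 245 CPM in transitional WT libraries, also below every follicular one, and Nfkbie 113, 125 and 119 CPM, above every follicular one, as for 20.9% of all genes. Nfkb2 also passed without follicular WT replicate 3 (log2 0.56, adjusted p = 0.0148), as did Nfkbib (log2 0.58, adjusted p = 0.0449), and Tnfaip3 without follicular WT replicate 2 (log2 -0.52, adjusted p = 0.0218).

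Nfkbia and Nfkbib differed in sign between the genotypes across maturation. Nfkbia had 156, 127 and 195 CPM in transitional WT libraries, a range that overlapped the 156 to 277 CPM of follicular ones (log2 0.37 ± 0.19, edgeR adjusted p = 0.175). In Sh3gl1-/- cells it had 211, 276 and 280 CPM in transitional libraries, all above the 160 to 179 CPM of follicular ones, as for 15.6% of all genes (log2 -0.59 ± 0.19, edgeR adjusted p = 0.0688, and -0.58 with adjusted p = 0.0458 with the block). Nfkbib had 35.0, 24.3 and 30.4 CPM in transitional WT libraries (log2 0.39 ± 0.20, edgeR adjusted p = 0.171) and 31.7, 37.4 and 48.0 CPM in transitional Sh3gl1-/- libraries (log2 -0.45 ± 0.20, edgeR adjusted p = 0.181). The test of the difference itself gave log2 -0.96 for Nfkbia (interval -1.49 to -0.43, edgeR adjusted p = 0.167) and -0.84 for Nfkbib (interval -1.40 to -0.29, edgeR adjusted p = 0.216). None of the 10 members passed that test (edgeR), where 0.0686% of all genes did, while 3 had an unadjusted p below 0.05, as had 13.7% of all genes. DESeq2 called 0 members, and edgeR without the filter on low counts called 1.73% of all genes and 2 members, Nfkbia (adjusted p = 5.87e-08) and Nfkbib (adjusted p = 0.00318). For this difference the SE of Nfkbia was 0.15 without the filter and 0.27 with it. In follicular against transitional WT cells, Nfkb1 and Nfkbia both had an SE of 0.1035 without the filter, and 0.0691 and 0.1923 with it. The unfiltered p-values therefore do not measure each gene's own spread.

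**Figure D4:**
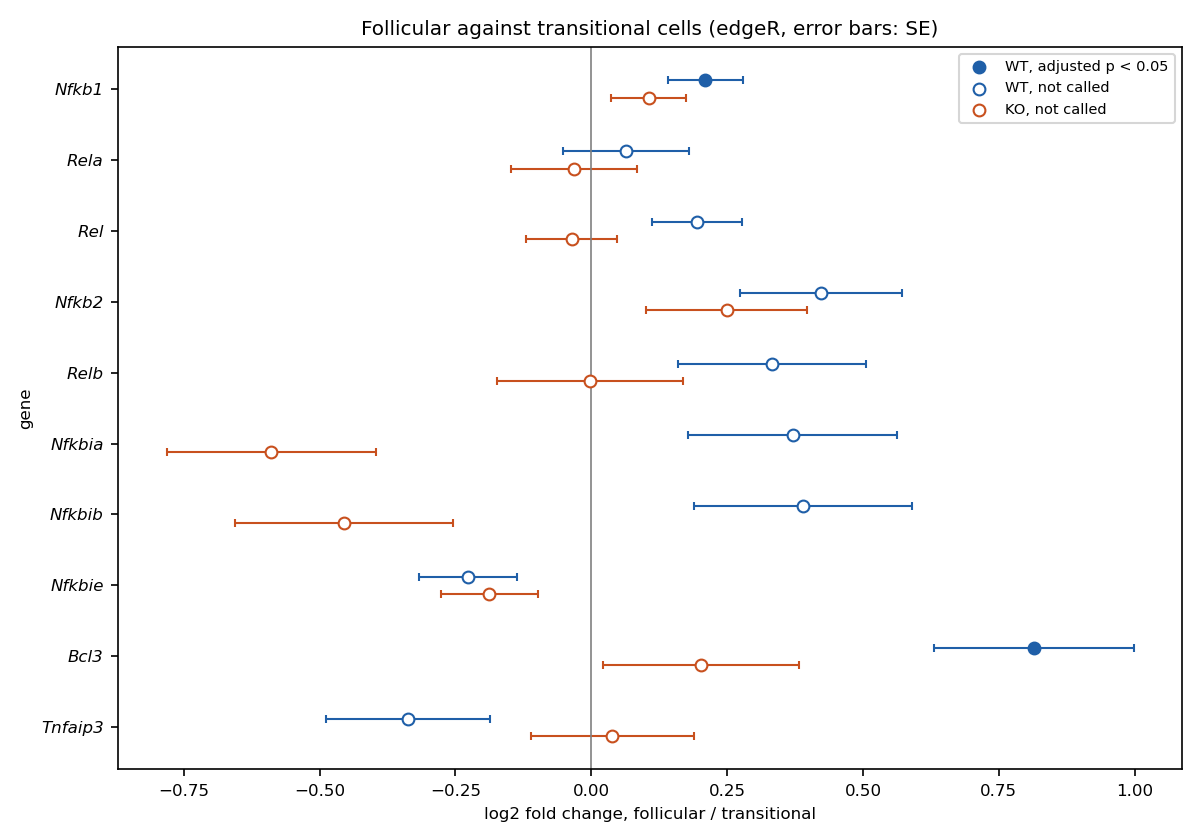
Log2 fold change of each member in follicular against transitional cells (x axis), in WT (blue) and Sh3gl1-/- (orange) cells; bars are SE, and filled points passed the test. Bcl3 (0.81) and Nfkb1 (0.21) in WT are filled, and the 2 genotypes lie on opposite sides of 0 for Nfkbia (0.37 and -0.59) and Nfkbib (0.39 and -0.45).

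Of the receptors that feed the pathway, 6 of 11 tested were lower in follicular WT cells, where 14.2% of all genes were, and 3 in follicular Sh3gl1-/- cells, where 6.71% were. Tnfrsf17 is among them in both genotypes (log2 -6.58 ± 1.57 and -5.42 ± 1.05). It passed the filter only in fits that held transitional libraries, where it is high. Its direction was thus fixed in advance, and its calls do not count as a result. The counts of 6 and 3 include it and to that extent overstate the result. None of the 11 was called higher with edgeR in either genotype, where 11.7% and 3.70% of all genes were. Among 26 targets, 5 were higher and 3 lower in WT, and 7 were higher and 2 lower in Sh3gl1-/- cells. The cytokine genes Lta (log2 1.06 ± 0.13) and Tnf (1.04 ± 0.18) were higher in follicular WT cells, and the cell cycle gene Ccnd2 (-1.28 ± 0.14) lower. Traf1 was higher in follicular WT cells (1.28 ± 0.21).

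The direct comparison of Sh3gl1-/- with WT cells was made in each of the 3 states. No member passed in any of them with edgeR, where 3.73% of 13774 genes passed in transitional, 0.845% of 13610 in follicular and 0.0227% of 13188 in CD40L-treated cells. At an unadjusted p below 0.05 there were 4 members in transitional, 1 in follicular and 1 in CD40L-treated cells, where 21.8%, 10.9% and 7.07% of all genes had one. DESeq2 called 2 in transitional cells, Nfkbia (adjusted p = 0.000716) and Nfkb2 (adjusted p = 0.0493), where it called 9.73% of all genes, and 0 in the other states. Plasma cell, neutrophil, T-cell and erythroid sums were higher in every transitional Sh3gl1-/- library, as given above. Dendritic-cell and marginal zone B-cell markers also differed there. In follicular libraries the plasma cell and T-cell sums were higher, and the neutrophil and erythroid sums overlapped. After CD40L, 5 neutrophil markers summed to 47.5 to 172 CPM in Sh3gl1-/- and 8.44 to 37.4 CPM in WT libraries. T-cell sums were also higher in every treated Sh3gl1-/- library, while plasma cell and erythroid sums overlapped. The 4 marginal zone B-cell markers were lower, at 72.8 to 98.9 against 110 to 112 CPM. The part of these cells in the differences was not tested.

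In transitional cells Nfkb2, Relb, Nfkbia and Bcl3 were higher in every Sh3gl1-/- than in every WT library, as were 13.6% of all genes. Nfkbia was 1.61-fold higher, at 211 to 280 CPM against 127 to 195 CPM (log2 0.68 ± 0.16, edgeR adjusted p = 0.0531). Nfkbia passed without WT replicate 3, the highest WT library, whose removal widens the gap (log2 0.85, edgeR adjusted p = 0.0386). With all 6 libraries it passed in DESeq2 and in edgeR without the filter on low counts (log2 0.69, adjusted p = 4.31e-06). The SE in that unfiltered fit was 0.11, against 0.16 with the filter. Nfkbia did not pass with median-ratio scaling, the replicate block or all 18 libraries in 1 fit. Nor did it pass without any other single library (edgeR adjusted p up to 0.202). Nfkb2 was at 34.9, 32.2 and 40.7 CPM in Sh3gl1-/- against 24.1 to 28.0 CPM in WT libraries (log2 0.43 ± 0.13, edgeR adjusted p = 0.0904). Relb was at 18.03, 15.3 and 19.5 CPM against 14.7, 12.43 and 10.9 CPM (log2 0.47 ± 0.17, edgeR adjusted p = 0.148), and Bcl3 differed by 0.51 ± 0.18 (edgeR adjusted p = 0.15). Nfkb1 (log2 0.00, interval -0.14 to 0.15), Rela (-0.03, -0.25 to 0.18), Rel (0.04, -0.14 to 0.22), Nfkbie (0.07, -0.10 to 0.24) and Tnfaip3 (-0.07, -0.31 to 0.17) had intervals that held 0, while that of Nfkbib (0.38) ran from 0.03 to 0.73.

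In follicular cells Rel was lower in every Sh3gl1-/- library than in every WT one, at 232 to 259 against 260 to 291 CPM, as were 7.97% of all genes, and the difference did not pass (log2 -0.17 ± 0.08, edgeR adjusted p = 0.486). Nfkbib had the lowest unadjusted p (log2 -0.45 ± 0.18, edgeR adjusted p = 0.385), with overlapping ranges. WT replicate 1 had the highest Nfkbia, Nfkbib, Bcl3, Nfkb2 and Rel of the 3 follicular WT libraries, and without it the difference in Nfkbia went from -0.26 to 0.02 on the log2 scale. After CD40L, Rel was higher in every Sh3gl1-/- library (262 to 301 CPM) than in every WT one (201 to 250 CPM), as were 6.21% of all genes, and again did not pass (log2 0.33 ± 0.13, interval 0.08 to 0.58, edgeR adjusted p = 0.668). For the other 9 members the CD40L-treated groups overlapped.

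**Figure D5:**
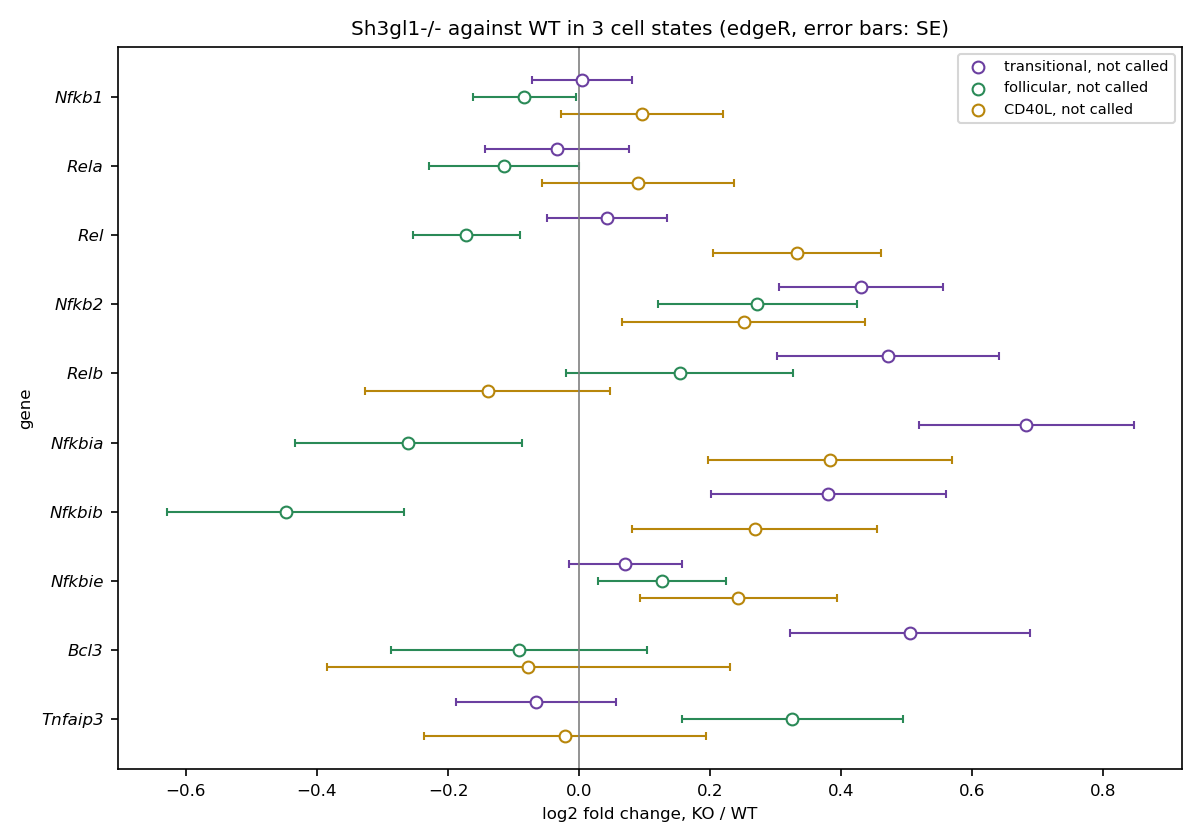
Log2 fold change of each member in Sh3gl1-/- against WT cells (x axis) in transitional (purple), untreated follicular (green) and CD40L-treated (gold) cells; bars are SE, and all points are open because none passed the test. Nfkbia in transitional cells lies farthest from 0 (0.68), and Rel lies at -0.17 in untreated and 0.33 in CD40L-treated follicular cells.

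The pathway lists were read in the same genotype comparisons with edgeR. In transitional cells 0 of 22 upstream genes and 0 of 13 other feedback regulators passed, where 3.73% of all genes did. Of 26 targets 2 passed there (both lower), and of 11 receptors tested 1 (lower). In follicular cells 1 of 24 tested targets (higher) and 0 of the other lists passed, where 0.845% of all genes did. After CD40L 0 passed in any list, where 0.0227% of all genes did.

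The order of the groups differed between members. Nfkb2, Relb, Nfkbia, Nfkbib, Nfkbie and Tnfaip3 had both CD40L-treated groups on top, with overlapping ranges between the 2 genotypes and a gap to the next group. Nfkb1 had the same top pair and a second gap, between the follicular and the transitional groups, and Nfkb2 a second one between follicular and transitional WT cells. For Rel, Rela and Bcl3 neighbouring groups in the order overlapped throughout. Over the 18 libraries the member most like Nfkb2 was Relb (Pearson r = 0.952 of log2 CPM, and 0.826 over the 12 untreated libraries), that most like Nfkbia was Nfkbib (0.975 and 0.840), and that most like Tnfaip3 was Nfkbie (0.983, but 0.272 over the untreated libraries). Because the 6 CD40L-treated libraries stand apart, the coefficients over 18 libraries mainly restate that split and are given as descriptions. Among all 15117 genes the most like Nfkb2 was Ifnlr1 (0.979 and 0.803), the most like Tnfaip3 was Icam1 (0.992 and 0.462), the most like Nfkbia was Pabpc4 (0.989 and 0.892), and the most like Rel was Tgfbr3l (0.877 and 0.914).

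By position, Bcl3 and Relb are neighbours on chromosome 7 (chr7:19808462-19822770 and chr7:19606217-19629438, GRCm38), 179 kb apart. Nfkbie (chr17:45555703-45563169) lies on the chromosome of the deleted gene, 10.45 Mb from Sh3gl1, so alleles that stayed linked to the deletion cannot be told apart from the deletion for it. Nfkb2 (chr19:46304320-46312385), Nfkbib (chr7:28758251-28767512) and Bcl3 overlap genes on the opposite strand in the annotation, Nfkb2 with Psd and a promoter lncRNA, Nfkbib with Sirt2 and Ccer2, and Bcl3 with 2 antisense genes. The strand setting of the counting is not given in the sources used here, so reads of these overlaps may be shared.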

How the data were processed

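Poly(A) RNA of 18 libraries was measured, 3 per group, and groups followed the labels. Per the labels, stranded KAPA mRNA Hyper Prep libraries were made from RNA isolated with RNeasy kits, and the submitters' processing notes name cutadapt 1.9.1, STAR 2.5.2a, RSEM 1.3.0 and GRCm38. The study's methods instead name SMART-Seq HT with Nextera XT, and TopHat with Cufflinks, and which applies was not settled. The authors deposited RSEM expected counts, TPM and FPKM per gene. The 18 FPKM columns were not used. The deposited expected counts were rounded, filtered by expression (filterByExpr), TMM-scaled and tested with edgeR 4.0.16 (quasi-likelihood, Benjamini-Hochberg over all genes tested, R 4.3.3), each genotype comparison on its 6 libraries and each other comparison on its 12. CPM used TMM factors over 18 libraries, and the deposited TPM served only for levels between genes. No count test was named in the study's methods.

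Alternatives were DESeq2 1.42.0, median-ratio scaling, no filter on low counts, all 18 libraries in 1 fit, each replicate left out, a replicate block and, added after the data were seen, a replicate block within each genotype. Replicate numbers come from the titles. Same-numbered libraries deviated together (all 3 correlations over 0.1 across 15117 genes) for transitional with follicular WT (0.103, 0.145 and 0.242), transitional with follicular Sh3gl1-/- (0.195, 0.263 and 0.115) and untreated with CD40L-treated WT cells (0.144, 0.136 and 0.224), not for treated Sh3gl1-/- cells (0.119, 0.079 and 0.030) nor between genotypes. Replicate pairs were distinct libraries (chi-square per degree of freedom 9.25 to 47.8 over 18 pairs). The labels do not tie replicates to mice, though the study describes separate mice of each genotype, and p-values measure the spread between these libraries. An exception is edgeR without the filter on low counts, whose p-values do not measure each gene's own spread. The edgeR steps were tested on simulated data with the same spread for all genes. Of changes of log2 size 1 they recovered 69 of 110 for the WT CD40L response and 77 of 95 for genotype in follicular cells. For the difference in CD40L response they recovered only 20 of 89. At log2 size 2 they recovered 90 of 90, 104 of 105 and 107 of 111.

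The members and pathway lists were chosen with earlier results of these data known. All 10 members are named; from each list, at most 4 called genes per direction with the lowest adjusted p; and by pattern, the 3 genes and the member with the highest r.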

Additional observations from a re-analysis of the deposited data

How the results depend on the processing

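Of the 1170 alternative values of single members, 1071 kept their direction and their side of the threshold, and no called change turned its direction. With DESeq2, 4 members were called for follicular against transitional WT cells and 2 for Sh3gl1-/- against WT transitional cells. With median-ratio scaling, and with all 18 libraries in 1 fit, 1 was called for follicular against transitional WT cells. Without the filter on low counts, 4 were called for follicular against transitional WT cells, 2 for Sh3gl1-/- cells, 2 for the difference in maturation, 1 for the difference in CD40L response and 1 for Sh3gl1-/- against WT transitional cells, and Nfkb1 and Rel lost their calls in the WT CD40L response (adjusted p = 0.143 and 0.0565). The limit on the spread in this unfiltered fit is given above. Over the libraries left out, 1 to 3 members were called for follicular against transitional WT cells and 0 to 1 for Sh3gl1-/- against WT transitional cells. With the replicate block within each genotype, 5 and 1 members were called for maturation in WT and Sh3gl1-/- cells. The plain replicate block changed no count of member calls past 1.5 times, but ended the WT CD40L call of Nfkb1 (adjusted p = 0.0568) and brought that of Nfkb2 in maturation (0.0499). Summed CPM in place of TPM gave non-canonical shares of 7.32% and 9.62% in transitional, 8.37% and 10.6% in follicular and 18.9% and 18.7% in CD40L-treated WT and Sh3gl1-/- cells, and IkB to subunit ratios of 0.573 and 0.751, 0.560 and 0.541, and 1.83 and 2.01, since CPM is not length-scaled.

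Counts over all genes moved more. The difference in CD40L response went from 0 genes to 210 without the filter, the difference in maturation from 10 to 462 (20 with the replicate block, 99 with that within each genotype), and Sh3gl1-/- against WT in transitional cells from 514 to 1426 without the filter and 1340 with DESeq2. DESeq2 also called 29 and 364 genes for the differences in CD40L response and in maturation, and 352 and 79 for Sh3gl1-/- against WT in follicular and CD40L-treated cells, where 602 and 216 were called without the filter. With the replicate block, Sh3gl1-/- against WT gave 90 genes in transitional, 212 in follicular (115 without it) and 21 in CD40L-treated cells (3 without it), and over the libraries left out 28 to 479, 32 to 112 and 1 to 9.

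Differences near 0 that did not pass the test changed sign in places, on the log2 scale. The WT CD40L response of Rela was 0.0156 with DESeq2 and with median-ratio scaling and 0.003 in the 18-library fit. The difference in CD40L response of Bcl3 was 0.0079 without the filter and 0.0026 with the replicate block. Relb in follicular against transitional Sh3gl1-/- cells was 0.0023 with DESeq2, 0.0026 with median-ratio scaling, 0.0028 without the filter and 0.0093 in the 18-library fit. Over the libraries left out, the difference in CD40L response ran from -0.29 to 0.30 for Bcl3, -0.20 to 0.16 for Nfkb2 and -0.0215 to 0.21 for Nfkbie. The difference in maturation ran from -0.32 to 0.0049 for Nfkb2, -0.0179 to 0.10 for Nfkbie and -0.17 to 0.0154 for Rela. The WT CD40L response of Rela ran from -0.0806 to 0.0542. Follicular against transitional Sh3gl1-/- cells ran from -0.10 to 0.0323 for Rel, -0.11 to 0.0761 for Rela, -0.16 to 0.11 for Relb and -0.0459 to 0.11 for Tnfaip3, and in WT from -0.0198 to 0.13 for Rela. Sh3gl1-/- against WT ran, in transitional cells, from -0.0098 to 0.031 for Nfkb1, -0.0247 to 0.11 for Rel, -0.11 to 0.0433 for Rela and -0.14 to 0.0062 for Tnfaip3; in follicular cells, from -0.18 to 0.0877 for Bcl3, -0.43 to 0.0191 for Nfkbia and -0.0091 to 0.25 for Relb; and after CD40L, from -0.37 to 0.20 for Bcl3, -0.0599 to 0.17 for Rela, -0.25 to 0.0417 for Relb and -0.21 to 0.16 for Tnfaip3. The cause of these changes was not tested. With 3 libraries a group, a member without a call may still differ.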
